A study of Mus musculus with 6 samples.

Results

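The 34 genes described here carry fatty acids into the heart muscle cell, store and release them, and oxidise them in the mitochondrion, or set the rate of these steps. They were listed by function, with earlier results of these data known, and the rule uses no measured difference between the groups. Each was read from its probe set (a group of oligonucleotides for 1 transcript) with the highest mean over the arrays, which gave 32 of the 34 genes out of 18193 genes measured. The activating enzyme Acsl1 and the muscle carnitine palmitoyltransferase Cpt1b were not analysed here, since no probe set names either of them alone.

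The series holds 6 one-colour oligonucleotide arrays of heart RNA from mice 3 months old. Both groups lack desmin, the intermediate filament protein of muscle. The 3 arrays of the Des-/- group came from mice of strain 129SV, and the 3 arrays of the TNFαDes-/- group from desmin-null mice of mixed 129SV/C57 strain that also overexpress the cytokine TNF-α in the heart. Strain and transgene therefore cannot be told apart, and the sources used here do not name the promoter of the transgene. Per the labels, RNA of 3 hearts per genotype was pooled before labelling, whereas the series text speaks of 3 mice, so the arrays of a group may repeat 1 pool. The p-values then measure only the spread between arrays, which may be technical.

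Heart muscle draws most of its energy from long-chain fatty acids. They are freed from lipoproteins by lipoprotein lipase, enter through CD36 and transport proteins, bind to FABP3, are joined to coenzyme A, cross the inner mitochondrial membrane as carnitine esters and are shortened in repeated rounds of beta-oxidation, whose electrons pass through the electron transfer flavoprotein to the respiratory chain. The nuclear receptor PPARα and its coactivator PGC-1α drive many of these genes, malonyl-CoA made by ACACB blocks entry into the mitochondrion, and PDK4 turns glucose carbon away from oxidation.

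Cardiac genes were present at high levels: the mean of each of the 9 cardiomyocyte markers lay above the array medians, and their summed log2 level ran from 16.95 to 17.67 in Des-/- and from 17.54 to 17.58 in TNFαDes-/- hearts. The engineered genes did not check the labels. Tnf read 5.79, 5.85 and 5.97 in Des-/- and from 5.73 to 6.09 in TNFαDes-/- hearts (log2) and was not called (limma adjusted p = 0.746). Des read 8.42, 8.43 and 8.33 against 8.75, 8.88 and 8.73 and was higher in TNFαDes-/- hearts (0.39, adjusted p = 0.0219). The sources used here do not say whether these probe sets lie in the transgene or in the deleted part of Des.

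The arrays were not on 1 common scale at the bright end, where every fatty acid gene measured lies: all 32 belong to the brightest 20% of genes by mean. The 99th percentile lay at 12.30 (log2) on Des-/- replicate 1, 11.77 and 11.71 on Des-/- replicates 2 and 3, and 12.31 to 12.34 on the TNFαDes-/- arrays. Among the brightest 20% of genes, the median log2 change (TNFαDes-/- minus Des-/-, here and below) was 0.27 as deposited. Quantile normalization, in which the 6 arrays are given 1 shared distribution, brought it to 0.02. Both scalings are therefore given throughout. The ratio of 3' to 5' control probe sets, a sign of RNA integrity and labelling, also moved with the group: for Gapdh it was -0.01 ± 0.03 in Des-/- and 0.32 ± 0.04 in TNFαDes-/- hearts (log2, SD, n = 3). Its part in the results was not tested.

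The fatty acid genes were lower in TNFαDes-/- hearts in 5 of 32 cases and higher in 1 as deposited, at a limma adjusted p under 0.05 over all genes. These shares, 15.6% and 3.12%, stand beside 6.05% lower and 15.2% higher over all genes (21.3% in either direction). In the brightest 20% of genes, where all 32 lie, 5.06% were lower and 31.2% higher as deposited. After quantile normalization 18 fell (56.2%) and 1 rose, beside 10.4% lower and 12% higher over all genes (22.5% in either direction). In the brightest 20%, 17.4% were then lower and 19.8% higher. The 6 genes called as deposited were all called in the same direction after quantile normalization, and the other 13 falls were added by that scaling. Over all genes 6.01% were lower and 11.5% higher under both. The groups did not overlap as deposited for 9 genes lower and 2 higher (13.7% and 24.3% of all genes), and after quantile normalization for 24 lower and 2 higher (19% and 20.6%, or 39.6% either way). The 32 genes had a median change of -0.03 as deposited, beside 0.04 over all genes, and of -0.36 once quantile normalized, beside -0.0039. The medians of the brightest 20% were 0.27 and 0.02, and the difference from the fatty acid genes was not tested. In bulk heart RNA, fewer muscle cells and less RNA per cell cannot be told apart.

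Des-/- replicate 1 stood apart from the rest of its group. It lay above both other Des-/- arrays for 30 of the 32 genes, as it did for 88.6% of the brightest 20% of genes, and by a median of 0.46 on the log2 scale for the fatty acid genes. All TNFαDes-/- arrays lay below it for 27 of the 32 genes, and below both other Des-/- arrays for 9. They all lay above the mean of Des-/- replicates 2 and 3 for 17 genes. Shares over all genes were not computed for these counts, so they cannot be called particular to the fatty acid genes. Without Des-/- replicate 1, as deposited, 10 fatty acid genes were higher and 5 lower (23.4% and 8.56% of all genes). Array weights gave the same counts (30.2% and 16% of all genes). With the same array left out and the other 5 quantile normalized, 20 genes were lower and 2 higher (13.5% and 12.9% of all genes). Set alone against the TNFαDes-/- arrays, whose 99th percentiles lie close to its own, Des-/- replicate 1 left 10 genes lower and 1 higher as deposited (3.87% and 4.85% of all genes), with a median change of -0.37. That last fit was chosen after seeing the data and assumes that the lone array varies like the other group.

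**Figure D1:**
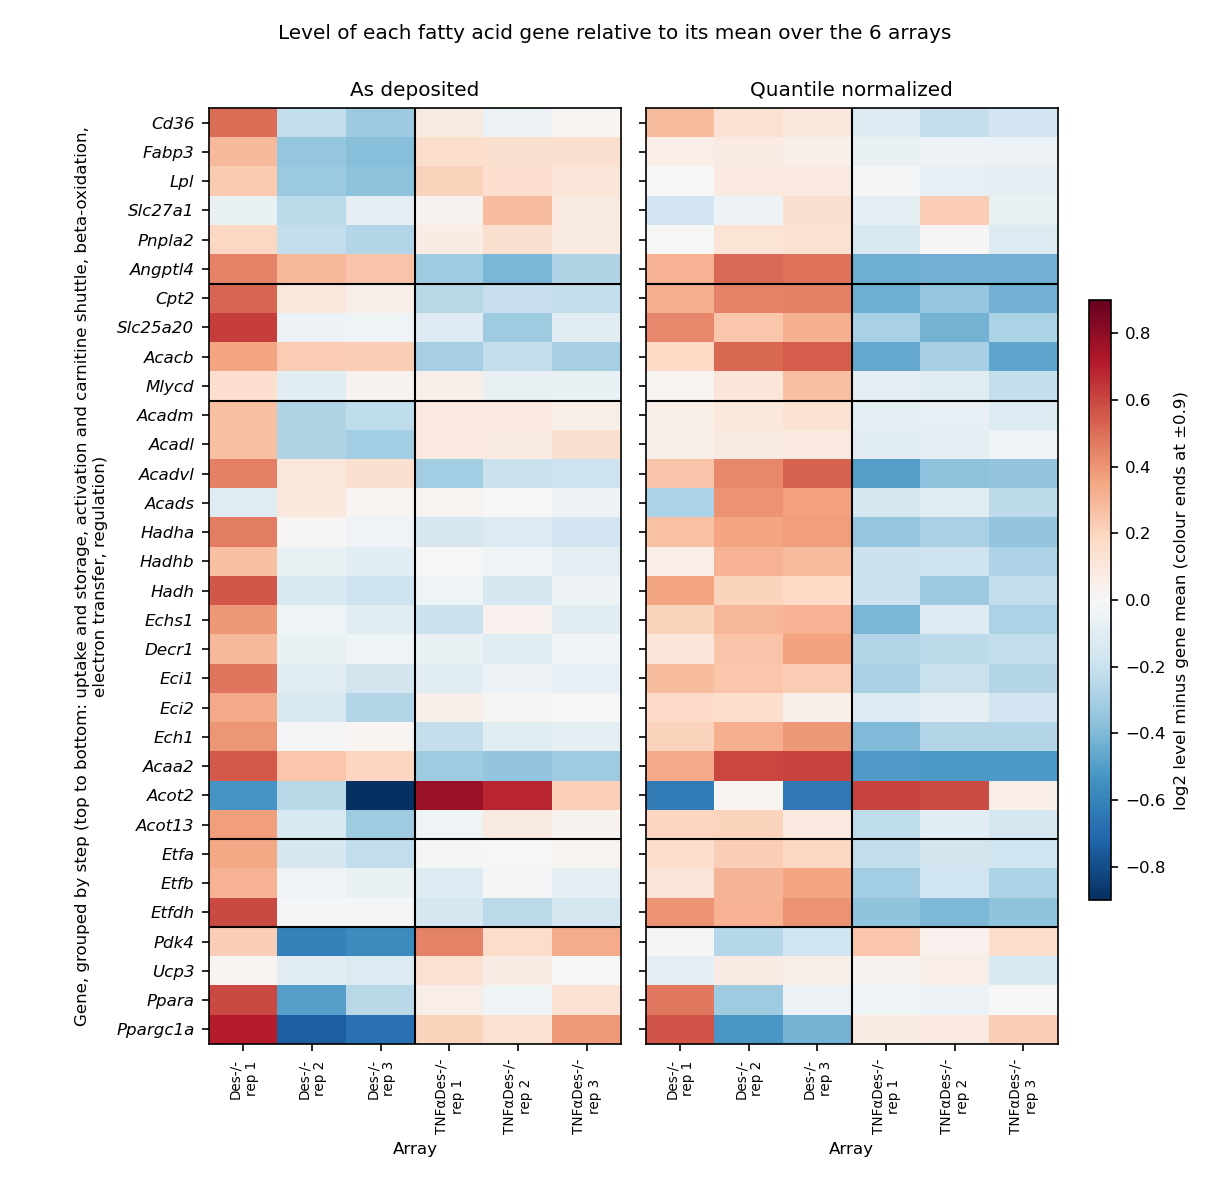
Each row is 1 of the 32 fatty acid genes and each column 1 array, with the colour giving the log2 level minus the gene's mean over the 6 arrays, as deposited (left) and quantile normalized (right). On the left Des-/- replicate 1 stands above both other Des-/- arrays for 30 genes, while on the right 24 genes lie lower on every TNFαDes-/- array.

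**Figure D2:**
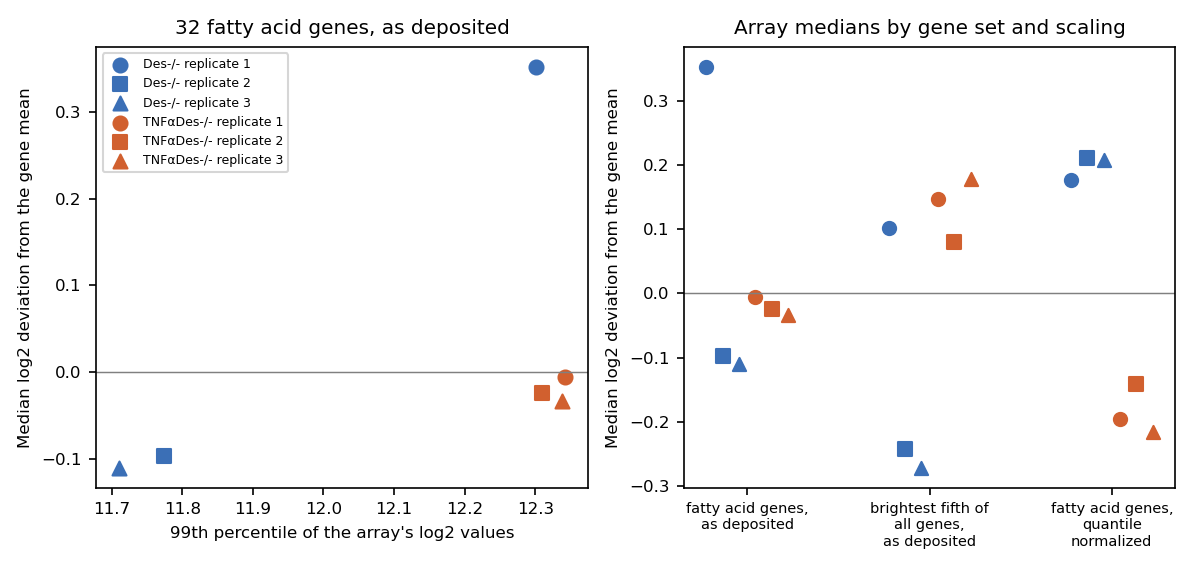
Left, the median log2 deviation of the 32 fatty acid genes from their means on each array, as deposited, against the array's 99th percentile of log2 values. Right, the same medians for the fatty acid genes and for the brightest 20% of all genes as deposited, and for the fatty acid genes after quantile normalization, where the Des-/- arrays lie at 0.18 to 0.21 and the TNFαDes-/- arrays at -0.22 to -0.14.

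Genes of the carnitine shuttle and its malonyl-CoA switch were lower in part. Of 4 measured in this step, 2 fell as deposited and 3 after quantile normalization (6.05% and 10.4% of all genes). Cpt2, the inner-membrane enzyme that hands the fatty acid back from carnitine to coenzyme A, read 11.77, 11.35 and 11.30 in Des-/- and 11.00, 11.04 and 11.02 in TNFαDes-/- hearts. The groups did not overlap, as they did not for 38% of all genes, and Des-/- replicate 1 was the highest. The change was -0.45 ± 0.13 (SE; adjusted p = 0.0436) as deposited and -0.82 ± 0.08 (1.76-fold lower; adjusted p = 0.000368) after quantile normalization. The call as deposited was lost when any array but Des-/- replicate 1 was left out (adjusted p from 0.051 to 0.132). It was also lost with median centring (0.0599), the mean of all probe sets (0.115) and an intensity trend (0.0662). The carnitine-acylcarnitine carrier Slc25a20 read 11.02, 10.35 and 10.36 against 10.28, 10.08 and 10.31. It did not pass as deposited (-0.35 ± 0.18, adjusted p = 0.213), with groups separated by a small gap, and fell by 0.67 on the log2 scale after quantile normalization (adjusted p = 0.00133). Its second probe set fell as deposited (-0.63, adjusted p = 0.0241 over all probe sets).

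Acacb, the mitochondrial acetyl-CoA carboxylase that makes the inhibitor of this shuttle, also fell. It read 10.35, 10.22 and 10.22 in Des-/- and 9.69, 9.78 and 9.70 in TNFαDes-/- hearts, the tightest Des-/- values of the genes called lower as deposited. The change was -0.54 ± 0.09 (adjusted p = 0.00518) and -0.82 ± 0.12 (adjusted p = 0.00172) after quantile normalization. Its second probe set lay below the array medians, and the mean of both did not pass (-0.21, adjusted p = 0.27). Mlycd, the decarboxylase that removes malonyl-CoA, did not pass under either scaling (-0.05 ± 0.10 and -0.27 ± 0.09). It fell under cyclic loess (-0.30, adjusted p = 0.0469) and, after quantile normalization, without Des-/- replicate 1 (-0.32, adjusted p = 0.0374) or with array weights (-0.32, adjusted p = 0.0167). The difference between Acacb and Mlycd was not tested.

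The promoters of 3 genes called lower under both scalings are shown because they are the called members whose upstream sequence is in the RefSeq table. Each line gives the 250 bases before the RefSeq start in build GRCm38.p6, from 5' to 3' on the strand of the gene, with capitals for the letters GGGCGG (a GC box) or AGGTCA (the hexamer that nuclear receptors bind) on either strand. Cpt2 holds 2 GC boxes, Acadvl 1 hexamer and Acacb neither.
Cpt2, chr4:107923590-107923839, minus strand: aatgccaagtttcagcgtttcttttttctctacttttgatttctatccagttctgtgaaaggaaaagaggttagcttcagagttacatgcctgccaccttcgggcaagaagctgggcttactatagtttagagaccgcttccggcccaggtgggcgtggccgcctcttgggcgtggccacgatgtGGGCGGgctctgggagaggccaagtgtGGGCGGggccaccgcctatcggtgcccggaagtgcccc
Acadvl, chr11:70015429-70015678, minus strand: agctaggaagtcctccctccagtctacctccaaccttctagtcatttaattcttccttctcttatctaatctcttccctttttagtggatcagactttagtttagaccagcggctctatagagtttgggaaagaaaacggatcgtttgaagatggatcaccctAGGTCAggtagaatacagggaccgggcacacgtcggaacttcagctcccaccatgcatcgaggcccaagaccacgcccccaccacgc
Acacb, chr5:114165268-114165517, plus strand: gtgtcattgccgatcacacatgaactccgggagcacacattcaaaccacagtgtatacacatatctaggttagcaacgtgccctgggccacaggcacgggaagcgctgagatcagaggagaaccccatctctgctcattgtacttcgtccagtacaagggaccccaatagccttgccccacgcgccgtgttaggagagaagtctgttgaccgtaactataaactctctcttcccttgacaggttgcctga
Of the 32 genes measured, 27 have such a window. The element bound by PPAR with RXR, searched as AGGNCA and a further AGGNCA with any 1 base between them on either strand, was in 0 of the 27 and in 0.4% of all genes with a window. The letters TCAAGGTCA, bound by the estrogen-related receptors, were in 0 of the 27 and in 0.422% of all genes. With shares this low over all genes, 0 of 27 says nothing about control by these receptors. The plain AGGTCA hexamer was in 5 of the 27 (Cd36, Acadm, Acadvl, Echs1 and Ucp3), beside 15.8% of all genes, and the GC box in 15 of the 27, beside 35.4%. The last 2 motifs were chosen after the first 2 gave no match, and a match is a description of letters only.

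Genes of the beta-oxidation step moved mostly downward after quantile normalization, with 10 of 15 lower and 1 higher (10.4% and 12% of all genes). The 15 include the thioesterases Acot2, the 1 gene higher, and Acot13, which split acyl-CoA rather than shorten the chain. As deposited 2 fell and 1 rose (6.05% and 15.2% of all genes). The median change was -0.13 as deposited, against -0.48 after quantile normalization. The clearest fall was that of Acaa2, the thiolase that cuts off acetyl-CoA. It read 12.60, 12.30 and 12.24 in Des-/- and 11.73, 11.69 and 11.73 in TNFαDes-/- hearts. The 3 TNFαDes-/- arrays were nearly level and lay well under all Des-/- arrays. The change was -0.67 ± 0.12 (1.59-fold lower; adjusted p = 0.00504) and -1.03 ± 0.10 after quantile normalization, where it was the largest fall of the 32 genes. Its other probe sets gave -0.78 and -1.25 as deposited, both past the test over all probe sets. Among the falls called as deposited, Acaa2 is the 1 that kept its call under every alternative tried.

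The acyl-CoA dehydrogenases, which make the first double bond, differ in the chain length they accept. Acadvl, for very long chains, read 12.72, 12.37 and 12.41 in Des-/- against 11.96, 12.07 and 12.08 in TNFαDes-/- hearts. It fell by 0.46 on the log2 scale as deposited (adjusted p = 0.0252) and by 0.81 after quantile normalization (adjusted p = 0.000841). As deposited the call was lost without Des-/- replicate 3 (adjusted p = 0.0549), TNFαDes-/- replicate 1 (0.102) or TNFαDes-/- replicate 3 (0.0717), and with an intensity trend (0.0838). The medium-chain Acadm (13.27, 12.73 and 12.78 against 13.09, 13.09 and 13.05) and the long-chain Acadl (13.28, 12.74 and 12.70 against 13.10, 13.10 and 13.15) did not pass. For both, the TNFαDes-/- arrays lay between Des-/- replicate 1 and the other 2 Des-/- arrays. Their changes were 0.15 ± 0.15 and 0.21 ± 0.16 as deposited and -0.19 ± 0.08 and -0.15 ± 0.08 after quantile normalization. Without Des-/- replicate 1 both rose as deposited (0.32 and 0.40; adjusted p = 0.0229 and 0.0107), and neither was called after quantile normalization. With array weights both rose as deposited (0.31 and 0.36; adjusted p = 0.0167 and 0.00828), whereas Acadm fell after quantile normalization (-0.21, adjusted p = 0.0375). The short-chain Acads gave -0.01 ± 0.10 and -0.33 ± 0.17, and did not pass. After quantile normalization it fell without Des-/- replicate 1 (-0.55, adjusted p = 0.00382) and with array weights (-0.50, adjusted p = 0.00885).

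Hadha and Hadhb encode the α and β subunits of the mitochondrial trifunctional protein, which carries out the later steps for long chains. Hadha read 12.71, 12.25 and 12.21 in Des-/- against 12.09, 12.12 and 12.07 in TNFαDes-/- hearts. Hadhb read 13.59, 13.26 and 13.22 against 13.32, 13.28 and 13.23. The groups stood apart for Hadha and overlapped for Hadhb. As deposited neither passed, with -0.29 ± 0.14 and -0.08 ± 0.12. After quantile normalization they were -0.67 ± 0.08 (adjusted p = 0.00081) and -0.43 ± 0.10 (adjusted p = 0.0133). The dimmest Hadhb probe set fell as deposited (-0.93, adjusted p = 0.0272 over all probe sets), and a further one did not pass (-0.27). The Hadhb call was lost when Des-/- replicate 2, Des-/- replicate 3 or TNFαDes-/- replicate 3 was left out before that normalization (adjusted p from 0.0552 to 0.057), while that of Hadha was kept in all 10 alternatives.

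These subunit genes are neighbours that are read in opposite directions, with RefSeq starts 273 bases apart. The sequence between them is shown because a single stretch lies upstream of both. It is the 250 bases before the Hadhb start, in GRCm38.p6, with 2 GC boxes in capitals.
Hadhb, chr5:30155003-30155252, plus strand: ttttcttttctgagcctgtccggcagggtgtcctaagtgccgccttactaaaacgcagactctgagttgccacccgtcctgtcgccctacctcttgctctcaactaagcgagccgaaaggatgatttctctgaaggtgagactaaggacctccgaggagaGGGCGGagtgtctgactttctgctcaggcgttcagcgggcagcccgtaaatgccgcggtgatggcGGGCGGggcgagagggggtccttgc

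The remaining enzymes of the cycle mostly showed 1 pattern, with Des-/- replicate 1 the highest as deposited and a fall after quantile normalization. The hydratase Echs1 read 11.77, 11.34 and 11.29 in Des-/- against 11.19, 11.42 and 11.29 in TNFαDes-/- hearts. The dehydrogenase Hadh read 13.59, 12.90 and 12.85 against 12.99, 12.88 and 12.99. Neither passed as deposited (-0.17 ± 0.14 and -0.16 ± 0.19), and both fell after quantile normalization (-0.54 and -0.49; adjusted p = 0.00566 and 0.00554). The same held for the enzymes that handle the double bonds of unsaturated chains: Decr1 (-0.13 ± 0.12 and then -0.48 ± 0.09), Eci1 (-0.15 ± 0.16 and then -0.51 ± 0.08) and Ech1 (-0.27 ± 0.13 and then -0.62 ± 0.09). The second probe set of Decr1 fell as deposited (-0.42, adjusted p = 0.0279 over all probe sets). Eci2 did not pass under either scaling (0.04 ± 0.15 and -0.25 ± 0.08, with adjusted p = 0.893 and 0.0608).

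Acot2, a mitochondrial thioesterase that splits acyl-CoA into free fatty acid and coenzyme A, was the 1 gene of the 32 that rose. It read 9.42, 9.70 and 9.05 in Des-/- and 10.72, 10.64 and 10.16 in TNFαDes-/- hearts. The groups did not overlap. The rise was 2.17-fold (1.12 ± 0.20, adjusted p = 0.00502) as deposited and 1.79-fold (0.84 ± 0.21, adjusted p = 0.0225) after quantile normalization. Its dimmer probe set gave 0.67 as deposited and 0.65 after quantile normalization, both past the test over all probe sets. The call held in all 18 alternatives as deposited, and after quantile normalization was lost without Des-/- replicate 1, Des-/- replicate 3, TNFαDes-/- replicate 1 or TNFαDes-/- replicate 2 (adjusted p from 0.0618 to 0.0869). Acot13, a smaller thioesterase, gave 0.06 ± 0.17 as deposited and fell by 0.32 on the log2 scale after quantile normalization (adjusted p = 0.0268). That call was lost without Des-/- replicate 2, Des-/- replicate 3, TNFαDes-/- replicate 1 or TNFαDes-/- replicate 3 (adjusted p from 0.0535 to 0.105).

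Acot1, the cytosolic paralog that lies next to Acot2 on chromosome 12, moved the other way. It read 5.79, 5.71 and 5.94 in Des-/- and 5.04, 5.05 and 5.11 in TNFαDes-/- hearts, a change of -0.75 ± 0.10 (adjusted p = 0.00146) that was -0.74 after quantile normalization. Its TNFαDes-/- levels lay near the array medians of 5.02 to 5.08, so that no fold is given. The coding sequences of these paralogs are nearly alike, and the cross-reaction of their probe sets was not tested. The upstream sequences of the pair, shown because neighbouring copies gave opposite calls, are the 250 bases before each start in GRCm38.p6. The capitals mark the GC box of Acot1 (read on the other strand), and the Acot2 stretch holds neither motif.
Acot2, chr12:83987611-83987860, plus strand: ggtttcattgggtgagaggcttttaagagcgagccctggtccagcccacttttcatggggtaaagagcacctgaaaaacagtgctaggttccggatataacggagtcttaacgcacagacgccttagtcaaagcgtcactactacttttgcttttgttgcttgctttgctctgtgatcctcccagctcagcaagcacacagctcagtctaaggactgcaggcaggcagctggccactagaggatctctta
Acot1, chr12:84009252-84009501, plus strand: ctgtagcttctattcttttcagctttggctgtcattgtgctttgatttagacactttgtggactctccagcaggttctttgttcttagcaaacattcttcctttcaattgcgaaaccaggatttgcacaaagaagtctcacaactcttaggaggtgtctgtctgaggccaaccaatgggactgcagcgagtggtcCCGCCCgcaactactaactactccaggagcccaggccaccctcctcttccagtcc

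All 3 genes that pass electrons from beta-oxidation to the respiratory chain fell after quantile normalization, as did 10.4% of all genes. As deposited limma called 0 of 3 (21.3% of all genes), and 0 at an unadjusted p under 0.05. Etfdh, the membrane dehydrogenase that delivers the electrons to ubiquinone, read 12.34, 11.72 and 11.73 in Des-/- and 11.59, 11.50 and 11.59 in TNFαDes-/- hearts. Each TNFαDes-/- array lay below each Des-/- array. The change was -0.37 ± 0.16 (adjusted p = 0.149) as deposited and -0.75 ± 0.08 (adjusted p = 0.00043) after quantile normalization. The flavoprotein subunits Etfa (12.71, 12.21 and 12.13 against 12.35, 12.36 and 12.38) and Etfb (12.26, 11.91 and 11.89 against 11.83, 11.93 and 11.86) overlapped as deposited. After quantile normalization they were -0.38 ± 0.08 and -0.52 ± 0.10 (adjusted p = 0.00966 and 0.00604). All 3 calls were kept in the 10 alternatives tried with that scaling.

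Of the uptake and storage genes, 1 of 6 was lower as deposited and 2 of 6 after quantile normalization (6.05% and 10.4% of all genes). Angptl4, a secreted inhibitor of lipoprotein lipase and a target of PPARs, fell. It read 9.40, 9.26 and 9.22 in Des-/- and 8.64, 8.55 and 8.68 in TNFαDes-/- hearts, with a wide gap between the groups. The fall was 1.59-fold (-0.67 ± 0.10, adjusted p = 0.00246) as deposited and 1.83-fold (-0.87 ± 0.09, adjusted p = 0.000337) after quantile normalization. It rests on a probe set named _s_at, which can match other transcripts, and the other probe set (mean 3.29 in Des-/-, below the array medians) gave 0.12.

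Its target Lpl, which frees fatty acids from lipoproteins, did not pass (0.31 ± 0.16 as deposited, -0.12 ± 0.08 after quantile normalization). Lpl read 14.22, 13.65 and 13.61 in Des-/- against 14.19, 14.13 and 14.10 in TNFαDes-/- hearts. Fabp3, the binding protein of muscle, read 14.24, 13.61 and 13.56 against 14.11, 14.09 and 14.09 and did not pass either (0.29 ± 0.17 and -0.12 ± 0.08). Without Des-/- replicate 1 both rose as deposited (0.51 each; adjusted p = 0.00413 for Lpl and 0.00345 for Fabp3). As the mean of its probe sets Fabp3 rose by 0.51 as deposited (adjusted p = 0.0138) and by 0.27 after quantile normalization (adjusted p = 0.0225). Its far dimmer second probe set (mean 6.42 in Des-/- as deposited) rose by 0.73 and 0.66 (adjusted p = 0.00317 and 0.00185 over all probe sets). As the mean of its probe sets after quantile normalization Lpl fell (-0.26, adjusted p = 0.0242). The second Lpl probe set fell after quantile normalization (-0.41, adjusted p = 0.0132 over all probe sets).

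The transporter Cd36 gave 0.03 ± 0.20 as deposited (13.00, 12.28 and 12.18 against 12.58, 12.45 and 12.52) and fell after quantile normalization (-0.34 ± 0.09, adjusted p = 0.0252). Without Des-/- replicate 1 it rose as deposited (0.29, adjusted p = 0.0499), opposite to the fall after quantile normalization. The call after quantile normalization was lost when any array but Des-/- replicate 1 was left out (adjusted p from 0.0519 to 0.0838). Its other probe sets gave -0.17 and -0.41 as deposited and -0.54 and -0.73 after quantile normalization. The transport protein Slc27a1 (0.26 ± 0.11 and 0.05 ± 0.12) and the triglyceride lipase Pnpla2 (0.19 ± 0.13 and -0.17 ± 0.09) did not pass. Pnpla2 rose as deposited without Des-/- replicate 1 (0.34, adjusted p = 0.022) and fell after quantile normalization with array weights (-0.23, adjusted p = 0.0356). The probe sets of Slc27a1 disagreed, since the dimmer one fell by 0.58 on the log2 scale as deposited and passed the test over all probe sets.

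Genes that set the rate of fatty acid use did not pass limma's adjusted test under either scaling, and 1 of 4 was higher at an unadjusted p under 0.05 under each. Pdk4, the kinase that shuts down pyruvate dehydrogenase, came nearest: it read 13.49, 12.66 and 12.70 in Des-/- and 13.72, 13.43 and 13.60 in TNFαDes-/- hearts. The groups overlapped as deposited at Des-/- replicate 1 and stood apart after quantile normalization. The changes were 0.64 ± 0.21 (adjusted p = 0.0641) and 0.30 ± 0.10 (adjusted p = 0.0678). Without Des-/- replicate 1 it rose under both scalings (0.91 as deposited, adjusted p = 0.00101, and 0.37, adjusted p = 0.0276).

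Ppargc1a, which encodes PGC-1α, spread widely within Des-/- hearts, whose range held all TNFαDes-/- values: 10.33, 8.88 and 8.95 against 9.82, 9.75 and 10.01. Its change was 0.47 ± 0.34 as deposited and 0.26 ± 0.25 after quantile normalization, and without Des-/- replicate 1 it rose by 0.94 and 0.60 (adjusted p = 0.000815 and 0.00365). Its 5 probe sets all gave changes above 0 as deposited, from 0.15 to 0.51, and none passed. After quantile normalization they ran from -0.05 to 0.37, and again none passed. Ppara read 9.36, 8.27 and 8.52 against 8.83, 8.73 and 8.90, with Des-/- replicate 1 again the highest. It gave 0.10 ± 0.24 and -0.07 ± 0.18, and rose as deposited without that array (0.43, adjusted p = 0.0227). Another of its probe sets fell after quantile normalization (-0.52, adjusted p = 0.0158 over all probe sets). The mitochondrial carrier Ucp3 gave 0.13 ± 0.10 and -0.03 ± 0.09. Within the list, the 4 regulators had a median of 0.30 as deposited and 0.11 after quantile normalization, beside -0.13 and -0.48 for the beta-oxidation genes, and this difference was not tested.

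**Figure D3:**
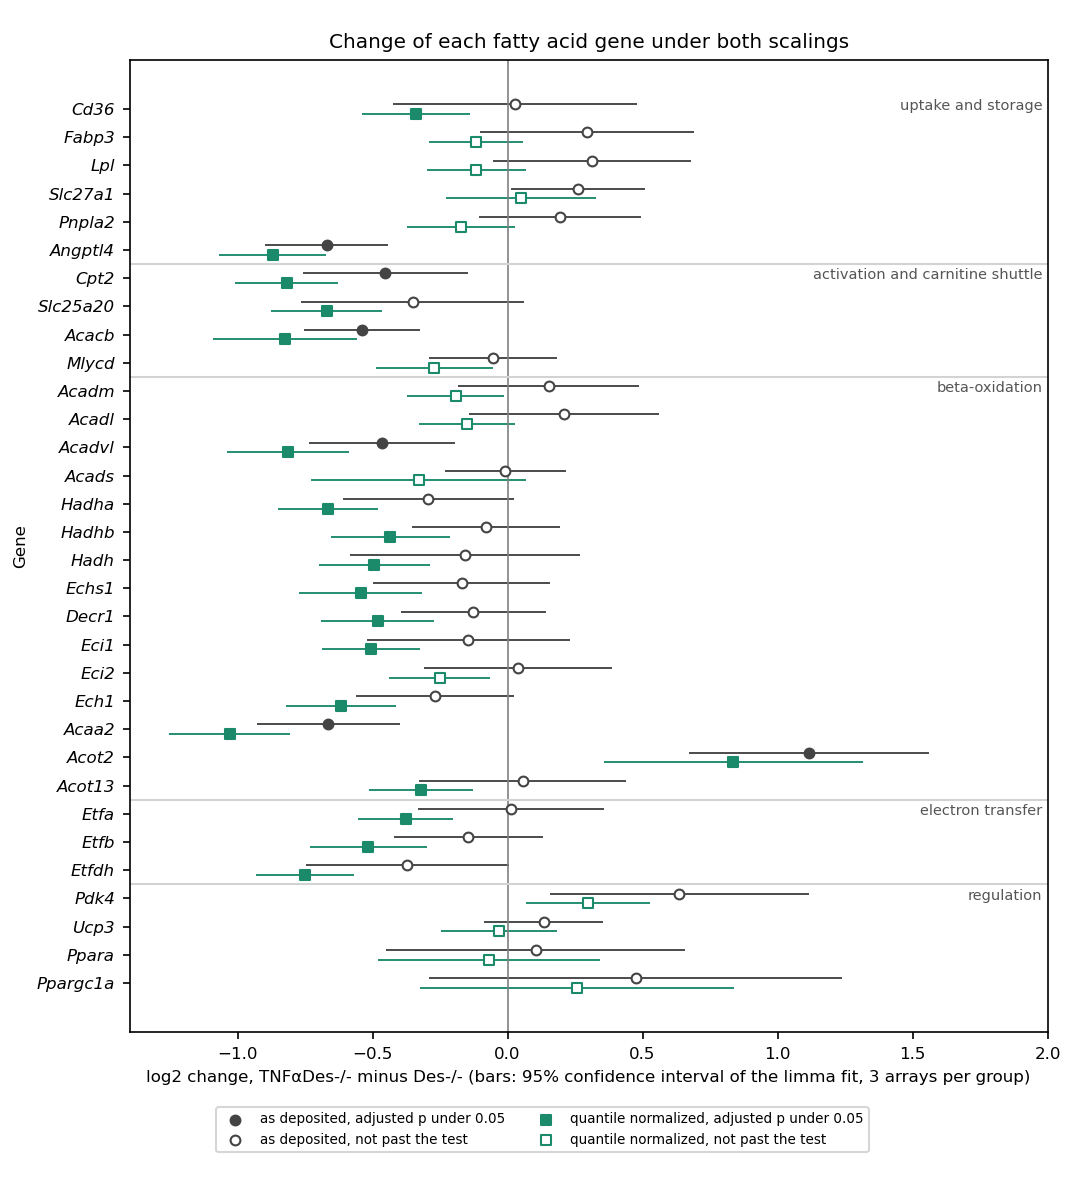
Each row is 1 fatty acid gene, with its log2 change (TNFαDes-/- minus Des-/-) and 95% confidence interval as deposited (circles) and quantile normalized (squares), filled where the limma adjusted p is under 0.05. The filled circles are 5 falls and 1 rise, and the filled squares 18 falls and 1 rise.

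**Figure D4:**
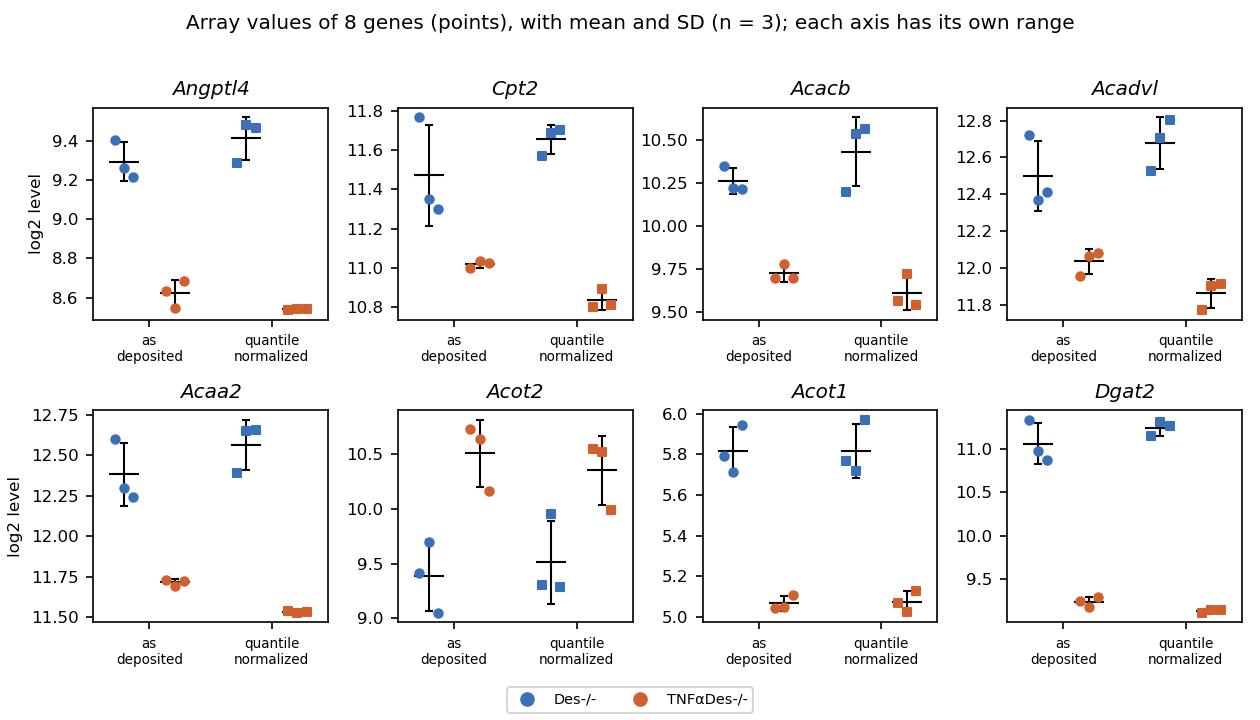
Points are the log2 values of the 3 arrays of each group, with the mean and SD, for the 6 fatty acid genes called as deposited and for Acot1 and Dgat2, under both scalings. The groups stand apart in each of the 8 genes, with Acot2 the 1 gene higher in TNFαDes-/- hearts.

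A wider list of 94 other genes of lipid uptake, storage, oxidation and their control, 86 of them measured, held calls in both directions. As deposited 11 were higher and 14 lower (12.8% and 16.3%), beside 15.2% and 6.05% over all genes. After quantile normalization 8 were higher and 34 lower (9.3% and 39.5%), beside 12% and 10.4% over all genes. The shares higher were close to those of all genes under both scalings, and the difference was not tested. The medians were -0.02 and -0.26. Of its 13 storage genes, 0 were higher and 5 lower as deposited, and 0 higher and 8 lower after quantile normalization. Dgat2, which makes triglyceride from diglyceride, had the largest change among the genes called under both scalings. It read 11.33, 10.97 and 10.87 in Des-/- and 9.25, 9.19 and 9.30 in TNFαDes-/- hearts, 3.51-fold lower (-1.81 ± 0.13, adjusted p = 8.61e-05). G0s2, an inhibitor of the lipase PNPLA2, was 2.43-fold lower (-1.28 ± 0.10, adjusted p = 0.000108). Both were lower by more after quantile normalization (-2.10 and -1.45).

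Markers of fat cells fell as well. For the counts below, 6.05% of all genes fell and 15.2% rose as deposited, and 10.4% and 12% after quantile normalization. Of 5 adipocyte markers measured 3 fell and 0 rose as deposited, with a summed log2 level of 10.05 to 10.38 in Des-/- and 9.52 to 9.56 in TNFαDes-/- hearts, and Lep lay below the array medians. Adipoq, the adipocyte hormone adiponectin, read 9.27, 8.65 and 8.51 against 7.52, 7.41 and 7.70. Of 2 brown fat markers measured, 1 fell as deposited (changes of -1.30 and -0.20) and 2 after quantile normalization. The marker called as deposited, Ucp1, read 9.13, 8.77 and 8.77 against 7.55, 7.62 and 7.60. Endothelial markers, whose cells also carry Cd36, fell in 4 of 7 cases and rose in 0 as deposited, with sums of 11.42 to 11.76 against 11.13 to 11.17. The cardiomyocyte list had 0 of 9 called by limma as deposited (3 higher at an unadjusted p under 0.05) and 2 lower after quantile normalization (median -0.10). Macrophage markers rose in 5 of 7 cases and fell in 1 under both scalings, with medians of 0.57 and 0.35 and sums of 12.79 to 13.21 against 13.38 to 13.42 as deposited. Fibroblast markers rose in 2 of 6 cases and fell in 0 as deposited, and rose in 1 and fell in 2 after quantile normalization, with sums of 13.59 to 14.07 against 14.37 to 14.45 as deposited. As deposited 1 of 2 erythroid and 1 of 5 skeletal muscle markers fell and 0 rose. The part of these cell types in the falls of Dgat2, G0s2, Angptl4 and Cd36 was not tested.

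Among oxidation genes outside the mitochondrial spiral, Ehhadh, the peroxisomal bifunctional enzyme and a PPARα target, was 2.07-fold lower (7.11, 6.61 and 6.78 against 5.75, 5.57 and 6.03; adjusted p = 0.0027). Acox3, a peroxisomal oxidase, was lower by -0.77 ± 0.14 on the log2 scale, with TNFαDes-/- levels of 4.63 to 4.95 that lie below the array medians. Bdh1, which interconverts the ketone bodies, was 2.18-fold lower (11.07, 10.66 and 10.55 against 9.59, 9.62 and 9.70; adjusted p = 0.00105). Oxct1, the next enzyme of ketone use, did not pass (0.35 ± 0.18 and -0.03 ± 0.08).

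Of the genes named from the wider list, 4 were higher. Acot7, a thioesterase of long-chain acyl-CoA, was 2.02-fold higher (9.11, 8.77 and 8.85 against 9.81, 9.98 and 9.97; adjusted p = 0.000799). Prkag2, a regulatory subunit of the energy sensor AMPK, was 2.81-fold higher (7.71, 6.96 and 7.37 against 8.83, 8.81 and 8.87; adjusted p = 0.000739). The nuclear receptor gene Ppard was 1.59-fold higher (0.67 ± 0.11, adjusted p = 0.00377) and Acbd3 1.81-fold higher (0.86 ± 0.12, adjusted p = 0.00165). All 4 were also called higher after quantile normalization. Cpt1a, the liver-type outer shuttle enzyme (0.04 ± 0.11), the kinase Pdk2 (-0.12 ± 0.18) and the nuclear receptor Esrra (0.07 ± 0.09) did not pass as deposited, and Pdk2 was lower after quantile normalization (-0.47, adjusted p = 0.00726).

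Other mitochondrial genes give a point of comparison. Of 26 respiratory chain genes limma called 0 as deposited (3 higher at an unadjusted p under 0.05, median 0.13) and 9 were lower after quantile normalization (34.6%, median -0.25). Of 19 citric acid cycle genes limma called 0 as deposited (0 at an unadjusted p under 0.05, median 0.18) and 6 were lower after quantile normalization (31.6%, median -0.20). The fatty acid genes stood at -0.03 and -0.36 with 56.2% lower after quantile normalization. Over all genes 21.3% were called as deposited, and 10.4% were lower after quantile normalization. The differences between these lists were not tested.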

How the data were processed

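RNA of hearts from 2 desmin-null groups was hybridised to 6 one-colour arrays, 3 per group. The authors deposited log2 values for 45101 probe sets made with RMA, per the submitters' processing notes, with its version and further steps not stated there. The array distributions differ at the bright end, so the values were analysed as deposited and after quantile normalization over the 6 arrays. Of the probe sets, 64 controls were left out, 34945 name 1 gene in the platform annotation, 932 several and 9160 none. Only those naming 1 gene were used, and 34741 matched a RefSeq gene identifier. The brightest probe set by mean stood for each gene (18193 genes).

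The comparison used limma 3.58.1 (lmFit, then eBayes; R 4.3.3). Its p-values were adjusted by Benjamini-Hochberg across the whole gene table, and a gene was called under 0.05. Values of second probe sets were adjusted over all probe sets. The number of arrays limits the precision. Errors after ± are standard errors of the fit unless SD is stated. The fit was tested on simulated data. Alternatives changed the scaling, the filter on dim probe sets, the choice of probe set, the variance model, array weights, the replicate block and the arrays included. All listed members are named, and of the wider list the 8 largest changes called under both scalings with 1 sign, plus Acot1, Cpt1a, Pdk2, Esrra, Ppard and Oxct1. Adipoq, Ucp1 and Lep were named after their values were seen. The members and lists were chosen with earlier results of these data known.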

Additional observations from a re-analysis of the deposited data

How the results depend on the processing

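As deposited, the counts of fatty acid genes higher and lower were 1 and 5 (15.2% and 6.05% of all genes), with a median change of -0.03. Cyclic loess gave 20 lower (11% of all genes) and a median of -0.38, and quantile normalization 18 (10.4%) and -0.36. The mean of all probe sets gave 2 higher and 3 lower (13.5% and 6.26% of all genes). The intensity trend gave 3 lower (6.13%), and array weights 10 higher (30.2%). Leaving out 1 array in turn gave 1 to 10 higher, 3 to 5 lower and medians of -0.12 to 0.07. In these fits 8.11% to 23.4% of all genes were higher and 3.06% to 8.56% lower. Des-/- replicate 1 alone gave a median of -0.37. After quantile normalization, leaving out 1 array gave 0 to 2 higher, 15 to 20 lower and medians of -0.41 to -0.36. Of all genes, 7.88% to 12.9% were then higher and 6.46% to 13.5% lower. With that scaling the mean of all probe sets gave 2 higher (11.4% of all genes), and array weights 3 higher (17.7%) with a median of -0.41. The wider list had 34 lower after quantile normalization (39.5%, beside 10.4% of all genes). Signs turned with a call gained under quantile normalization and cyclic loess for Cd36 (-0.34 and -0.38), Acot13 (-0.32 and -0.33) and Etfa (-0.38 and -0.39), and under cyclic loess for Acadm (-0.28). With the mean of probe sets after quantile normalization they turned for Fabp3 (0.27) and Slc27a1 (-0.34). Angptl4 turned to 0.12 without _s_at and _x_at probe sets, to 0.12 without _a_at, _s_at and _x_at probe sets, and to 0.11 without the latter after quantile normalization, where its dim probe set is read. Other causes were not tested. The labels number both groups 1 to 3, with nothing that says the numbers pair the arrays. Same-numbered arrays correlated at 0.25, 0.31 and -0.30 in their deviations from the group means, and differently numbered arrays at -0.43 to 0.38. With 3 arrays per group these values cannot settle whether the arrays are paired. With the replicate block 2 genes were higher and 5 lower as deposited, Pdk4 being added, and 1 and 18 after quantile normalization. The shares of all genes were 16.7% and 6.79% as deposited, and 12.5% and 10.7% after quantile normalization. Acaa2 kept its call in all 18 alternatives as deposited and all 10 after quantile normalization.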
